A study of Mus musculus with 6 samples.

Results

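The intergenic MafA regions that carried no H3K4me3 peak and lay within 50 kb of a gene were examined in MIN6 cells, a beta cell line derived from a mouse insulinoma. A MafA region was the union of overlapping peaks from the 2 MafA libraries, with at least 1 peak from each. The regions described here were chosen by 3 conditions. They overlapped no peak of either H3K4me3 library, their midpoint lay outside every RefSeq gene, and that midpoint was more than 1 kb and at most 50 kb from the nearest gene end. Of 25894 MafA regions, 5618 met all conditions, which is 21.7% (95% Wilson interval 21.2% to 22.2%, counting error only). They are called distal regions below.

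The study profiled chromatin by CUT&RUN, in which an antibody held on permeabilised cells directs a nuclease to cut and release the DNA under its target. Each sample used 500000 cells in 0.01% digitonin, and 3 antibody groups had 2 replicates each: a negative control IgG, H3K4me3 and MafA. All samples were of the same cell line, with no other treatment or genotype named, and nothing states that replicates came from separate cultures. The spread between them may therefore be technical. Peak lists of the 2 H3K4me3 and 2 MafA libraries were analysed.

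MafA is a large MAF transcription factor of the basic leucine zipper class, which activates insulin and other beta cell genes in mature beta cells. MAF proteins bind as dimers to recognition elements that hold the core TGCTGA, and the AP-1 site TGACTCA can form the centre of such an element. H3K4me3 marks the start sites of active genes, whereas distal regulatory elements usually carry little of it. The files used hold no mark of enhancer activity, so the distal regions are described by position alone.

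The sequence at the summits of the distal regions was not analysed here, because no genome was used. RefSeq promoter windows of GRCm38.p6, which run from 250 bases before to 50 bases after a start, fell inside distal regions at 3 lncRNA genes, Gm11755, Gm42320 and Gm45805. The windows that held a MAF or AP-1 core, at Gm42320 (chr4:131617187-131617486, plus strand) and Gm45805 (chr8:126758304-126758603, minus strand), are shown as the readable distal sequence with such a core; the window of Gm11755 held neither. Those of Ins1 (chr19:52264047-52264346, plus strand) and Scg2 (chr1:79439977-79440276, minus strand) are shown because they are the starts of beta cell genes with nearby distal regions. Capitals mark the MAF core TGCTGA and the AP-1 core TGACTCA on either strand, so that a reverse complement is in capitals too. The bases that end a MAF core can begin an AP-1 core.
Gm42320: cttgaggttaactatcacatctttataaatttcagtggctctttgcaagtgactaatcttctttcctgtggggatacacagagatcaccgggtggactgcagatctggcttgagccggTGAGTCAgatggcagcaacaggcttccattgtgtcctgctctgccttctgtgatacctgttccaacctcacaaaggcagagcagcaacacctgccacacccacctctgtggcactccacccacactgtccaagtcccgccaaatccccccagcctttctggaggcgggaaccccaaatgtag
Gm45805: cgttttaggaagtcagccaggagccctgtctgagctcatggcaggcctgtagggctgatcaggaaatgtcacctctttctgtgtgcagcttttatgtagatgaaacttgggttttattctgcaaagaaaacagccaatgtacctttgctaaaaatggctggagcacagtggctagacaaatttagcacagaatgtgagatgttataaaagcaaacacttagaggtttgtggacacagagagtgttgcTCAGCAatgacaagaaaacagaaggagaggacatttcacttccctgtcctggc
Ins1: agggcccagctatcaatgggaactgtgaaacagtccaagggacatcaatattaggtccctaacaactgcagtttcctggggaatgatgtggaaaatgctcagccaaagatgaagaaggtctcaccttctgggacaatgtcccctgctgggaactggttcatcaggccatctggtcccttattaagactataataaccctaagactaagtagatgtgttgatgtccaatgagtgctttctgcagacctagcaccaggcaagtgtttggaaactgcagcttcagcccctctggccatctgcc
Scg2: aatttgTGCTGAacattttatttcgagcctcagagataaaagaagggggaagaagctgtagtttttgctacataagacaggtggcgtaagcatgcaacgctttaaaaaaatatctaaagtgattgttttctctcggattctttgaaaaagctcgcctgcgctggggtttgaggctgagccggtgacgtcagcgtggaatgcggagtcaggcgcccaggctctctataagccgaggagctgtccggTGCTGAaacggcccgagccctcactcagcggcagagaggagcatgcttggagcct

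The Gm42320 window held 1 AP-1 core and the Gm45805 window 1 MAF core. The MafA summits of these 2 regions lay outside the windows, at positions 131615566 and 131615630 of chromosome 4 and at 126760109 and 126760081 of chromosome 8 in replicates 1 and 2. The Scg2 window held 2 MAF cores, and the Ins1 window held no exact match to either core. Sites that depart from these exact sequences were not searched for, so a window without a core may still hold a MAF site. On both strands, TGCTGA occurred in 19.5% of all 32851 promoter windows and TGACTCA in 5.2%. Among 3205 windows of the protein-coding genes nearest to a distal region, these shares were 17.4% and 3.96%. Over all 21262 windows of protein-coding genes, the shares were 18.1% and 4.66%.

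The MafA lists held 33013 and 42747 peaks in replicates 1 and 2, and the H3K4me3 lists held 16020 and 16904. As a check of the cell type label, H3K4me3 peaks stood at an end of 11 of 14 beta cell markers. They were missing at Ins1, Ucn3 and G6pc2, so 1 of the 2 insulin genes lacked the mark. Of 7 markers of other islet cells, Gcg and Irx2 carried it, and 0 of 5 acinar and duct markers and 0 of 5 fibroblast, endothelial and blood markers did. Library totals are not given in the sources used here, and depth was read from the fragments piled up at each summit.

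The strength of a distal region is given as fold enrichment. This is the authors' ratio of fragments at the summit, times a scaling factor, to the modelled local background, with 1 added to each. Median fold enrichment was 5.85 in replicate 1, with a middle range of 4.57 to 8.11, and 6.38 in replicate 2, with a middle range of 4.79 to 9.12. The lowest and highest were 2.21 and 50 in replicate 1 and 2.06 and 55.3 in replicate 2. These values describe regions that peak calling had already selected, and no test was made of them. A median of 25 fragments covered the summit in replicate 1 and 51 in replicate 2. By these fragments replicate 2 was the deeper library at these sites, and 60.5% of distal regions had the higher fold enrichment there. The modelled background was 3.48 and 5.0 scaled fragments, that is, after the scaling factors of 1 and 0.746 in replicates 1 and 2. Fragments at the summit are given before scaling, so in replicate 2 they are not in the unit of the background.

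Most distal regions were single compact peaks. The median width was 903 bp, and 5459 of them (97.2%) consisted of 1 peak in each library. The 2 summits were a median of 60 bp apart and lay within 200 bp of each other in 74.4%. A mean fold enrichment of at least 10 was reached by 965 regions (17.2%), and 166 (2.95%) reached 20. These traits were not particular to distal regions. Of unmarked MafA regions inside genes, 96.7% were 1 peak in each library and 16.7% reached 10. Of intergenic ones more than 50 kb from a gene, 97.3% and 18.4% did. Across the 5618 regions, Spearman's rho between replicates was 0.74 for fold enrichment and 0.877 for fragments at the summit. For fold enrichment it was 0.73 in each of the 2 other classes just named. These are descriptions across regions called in both libraries, each with its own modelled background. Whether the 2 libraries were called against a shared control is not given.

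**Figure D1:**
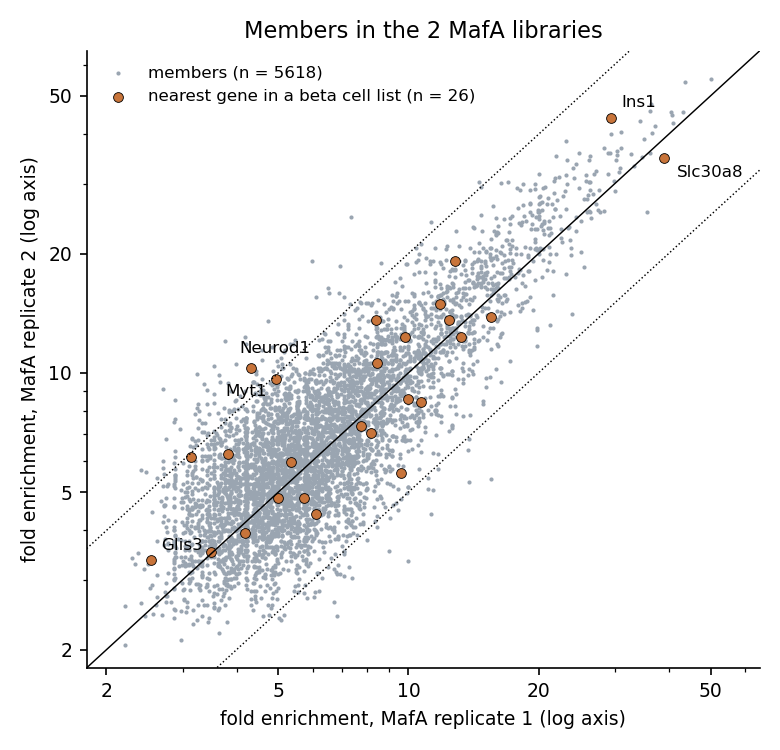
Fold enrichment of each of the 5618 distal regions in MafA replicate 1 (x axis) and replicate 2 (y axis), both on log axes; the solid line marks equality and the dotted lines a 2-fold difference. The 26 regions whose nearest gene is in a beta cell list are in orange and span the range, from Glis3 at 2.53 and 3.36 to Ins1 at 29.4 and 44.0 and Slc30a8 at 39.0 and 34.8.

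In 97.5% of distal regions the replicates were within 2-fold of each other. The 143 that were not included one near Pdyn, the prodynorphin gene, at 15.5 in replicate 1 and 5.39 in replicate 2. The 5 largest differences in that direction ran from −1.36 to −1.58 on the log2 scale of replicate 2 over replicate 1. In the other direction they ran from 1.62 to 1.75, the latter beside Rp2 on chromosome X and beside Gm35751. Peaks that met the same positional conditions but were taken from 1 list alone numbered 7455 in replicate 1, of which 77.6% overlapped a peak of replicate 2. Replicate 2 had 9364, of which 60.4% overlapped a peak of replicate 1. Peaks without a partner were weaker: in replicate 1 their median fold enrichment was 4.2, and 5.8 with a partner. In replicate 2 these medians were 4.13 and 6.38. Unmarked peaks inside genes overlapped a peak of the other list in 77.7% and 60.5% of cases in replicates 1 and 2. For intergenic peaks more than 50 kb from a gene, the shares were 77.0% and 60.4%.

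The positional limits did not coincide with a step in strength. Just inside the 1 kb limit, 192 distal regions between 1.0 and 1.5 kb had medians of 5.97 and 6.22 in replicates 1 and 2. Just outside it, 211 unmarked regions between 0.5 and 1 kb had 5.84 and 6.35. At the other limit, 168 regions at 45 to 50 kb had 6.33 and 6.62, and 144 at 50 to 55 kb had 6.23 and 7.07. In 252 distal regions −log10 q was under 3 in at least 1 replicate, close to the lowest value of 2.0 in the lists, and their medians were 3.33 and 3.77.

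In fold enrichment the middle ranges of the distal regions and of the other unmarked classes overlapped. The 11120 unmarked regions inside genes had medians of 5.82 and 6.37, and the 1329 intergenic regions more than 50 kb from a gene had 6.15 and 6.75. Against these gene desert regions, the log2 ratio of the distal median was −0.077 ± 0.006 (SD, n = 2) for fold enrichment. Taken from all peaks of 1 list, without joining, it was −0.06 without MafA replicate 1 and −0.03 without MafA replicate 2. For fragments at the summit, the same ratio was 0.119 ± 0.002 (SD, n = 2), with the opposite sign. Modelled background was higher by 0.312 and 0.261 on the log2 scale in replicates 1 and 2. The 6628 H3K4me3-marked MafA regions had lower medians of 4.38 and 4.68. Their background was 11.2 and 18.0 scaled fragments, against 3.48 and 5.0 at distal regions. The part of background in these differences was not tested.

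**Figure D2:**
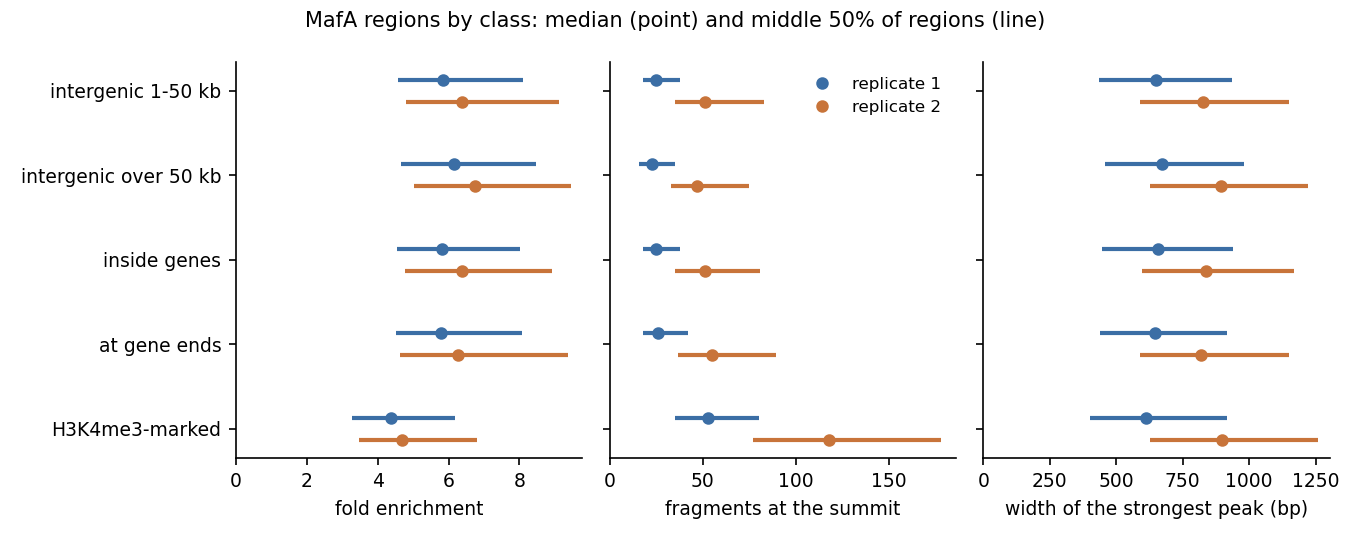
Fold enrichment, fragments at the summit and width in bp of the strongest peak for the 5 classes of MafA regions, with points at the median and lines over the middle 50% of regions, replicate 1 in blue and replicate 2 in orange. Distal regions (intergenic 1-50 kb) overlap the other unmarked classes on every axis, while H3K4me3-marked regions have lower fold enrichment and more fragments.

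The strongest distal region lay 9.89 kb from Mir6379 at chr3:46888786-46892772, with 309 and 652 fragments at its summit and fold enrichments of 50 and 55.3 in replicates 1 and 2. Its nearest protein-coding gene, Pabpc4l, was 443 kb away. The next, at chr13:113632090-113635596, was 15.3 kb upstream of Snx18, which encodes a sorting nexin of membrane trafficking, and had 43.6 and 54.1. Summits of these 2 regions were 9 and 24 bp apart between replicates. Both replicates therefore placed the highest distal peaks at the same point.

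Among the other 10 of the 12 best-ranked regions, mean fold enrichment ran from 37.0 to 44.4. One lay 2.8 kb upstream of the lncRNA Gm38530 and 5.68 kb downstream of Tent5c, with values of 43.1 and 45.6. One was 10.1 kb downstream of Rhcg, an ammonium transporter gene, at chr7:79582786-79583820, with 41.0 and 42.7. Its background was 1.73 and 2.61 scaled fragments. One was 5.04 kb upstream of Septin9, which encodes a filament-forming cytoskeletal GTPase, with 37.1 and 42.0. The region whose nearest gene was the pseudogene Gm7543, at chr15:52216721-52218657, had 36.2 and 45.9, and its nearest protein-coding gene was Slc30a8 at 77.9 kb. The nearest genes of the remaining 6 were Gm26559, Gm38630, Gm23016, Gm33861, Gm46069 and Gm39345, with Map1b, Dhx35, Atp8b1, Cand1, Dusp4 and Adpgk as their nearest protein-coding genes. The protein-coding gene nearest to each of the 12 had H3K4me3 peaks of both replicates at an end. Over all distal regions this held for 37.5% with MafA at the gene's ends as well and for 34.7% with H3K4me3 alone.

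The beta cell lists, chosen with earlier results of these data known, held 21 transcription factors and 33 genes of secretion and glucose sensing. A distal region had 14 of these 54 genes as its nearest gene of any kind (25.9%), against 7.78% of the 21896 protein-coding genes. By nearest protein-coding gene the count was 21 of 54 (38.9%), against 14.5%. Counting every gene with a distal region within 50 kb gave 27 of 54 (50%), against 21.6%. In total 66 distal regions had a listed gene as their nearest protein-coding gene. These genes also had more eligible intergenic sequence around them, a median of 29.9 kb per gene against 13.6 kb over all protein-coding genes. Per Mb of that sequence there were 15.3 distal regions, against 6.17 overall.

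The beta cell genes with the strongest distal regions encode insulin and a granule protein. Ins1 encodes insulin and had 1 distal region, 11.5 kb upstream at chr19:52251274-52254358, with 105 and 262 fragments and fold enrichments of 29.4 and 44.0 (36.7 ± 10.3, SD, n = 2). Its start, shown above, lay in a separate MafA region of 8.94 and 10.8 without an H3K4me3 peak. Slc30a8 encodes the transporter that loads zinc into insulin granules and had 3 distal regions as nearest gene of any kind. The strongest, 34.5 kb from the gene at chr15:52369406-52371128, had 39.0 and 34.8, followed by 12.8 and 19.2 at 16.8 kb and 6.12 and 4.4 at 49.8 kb. By nearest protein-coding gene Slc30a8 had 8 distal regions, between 16.8 and 129 kb away.

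The remaining genes of the secretion list with a distal region were Chga, Pcsk1, Syt7, Gjd2, Robo2 and Scg2. Chga, which encodes chromogranin A, had regions of 15.5 and 13.8 at 22.3 kb upstream and of 11.8 and 14.9 at 8.23 kb upstream, with summits 2 and 38 bp apart. Pcsk1, which encodes a convertase that cleaves proinsulin, had 13.2 and 12.3 at 28.4 kb downstream and 9.63 and 5.59 at 26.1 kb. Syt7, a calcium sensor of exocytosis, had 1 region of 9.81 and 12.3 at 3.22 kb. Gjd2, which encodes the gap junction protein connexin 36, had 8.21 and 7.06. Robo2, a receptor of axon guidance and islet architecture, had 9.98 and 8.57. At these genes the fold enrichments of the replicates were within 2-fold in each region. The summits of the Pcsk1 region at 26.1 kb were 618 bp apart.

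Scg2, which encodes the granule protein secretogranin II, was the listed gene with most distal regions as nearest gene of any kind, at 6. They were 3 upstream and 3 downstream, between 1.51 and 32.4 kb from its ends. The highest by mean had 8.4 and 13.6 at 26.6 kb upstream, and the next 10.7 and 8.44 at 30 kb upstream. The other 4 had 7.78 and 7.32, 3.14 and 6.13, 4.19 and 3.93, and 3.5 and 3.53. The MafA region at its start, where the window above holds 2 MAF cores, had a lower mean than any of the 6, at 3.38 and 3.33, and overlapped H3K4me3.

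Of the beta cell transcription factors, 6 were the nearest gene of any kind of a distal region. Isl1, a LIM homeodomain factor of islet cells, had 3 regions, all downstream, of which the strongest had 12.4 and 13.6 at 38.5 kb. Neurod1, a basic helix-loop-helix factor, had 8.47 and 10.6 at 42.8 kb upstream. Its other region, 4.03 kb downstream, had 4.33 and 10.3 with summits 1215 bp apart, so that the replicates did not peak at the same site there. Myt1, a zinc finger factor of endocrine cells, had 4.93 and 9.65 at 4.41 kb upstream. Rfx6 had 3.82 and 6.24, and Foxo1 had 5.72 and 4.82. The Rfx6 region was weak in replicate 1, with 9 fragments and a −log10 q of 2.88, and its summits were 588 bp apart.

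Glis3, a zinc finger factor of beta cells, had 2.53 and 3.36 over a high background of 13.2 and 20 scaled fragments. Its mean fold enrichment was the lowest of the 26 regions whose nearest gene of any kind was listed. Nkx6-1, a homeodomain factor, was the nearest gene of any kind of 0 distal regions but the nearest protein-coding gene of 7, between 46.2 and 351 kb away, with up to 7.95 and 10.3. Mafa, Pdx1 and Ins2 were the nearest protein-coding gene of 0 distal regions, in lists where this rule found 21 of 54 genes. The eligible sequence around each of them is not given here. Of the 54 listed genes, 44 (81.5%) had H3K4me3 peaks of both replicates at an end, against 55.6% of all protein-coding genes.

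**Figure D3:**
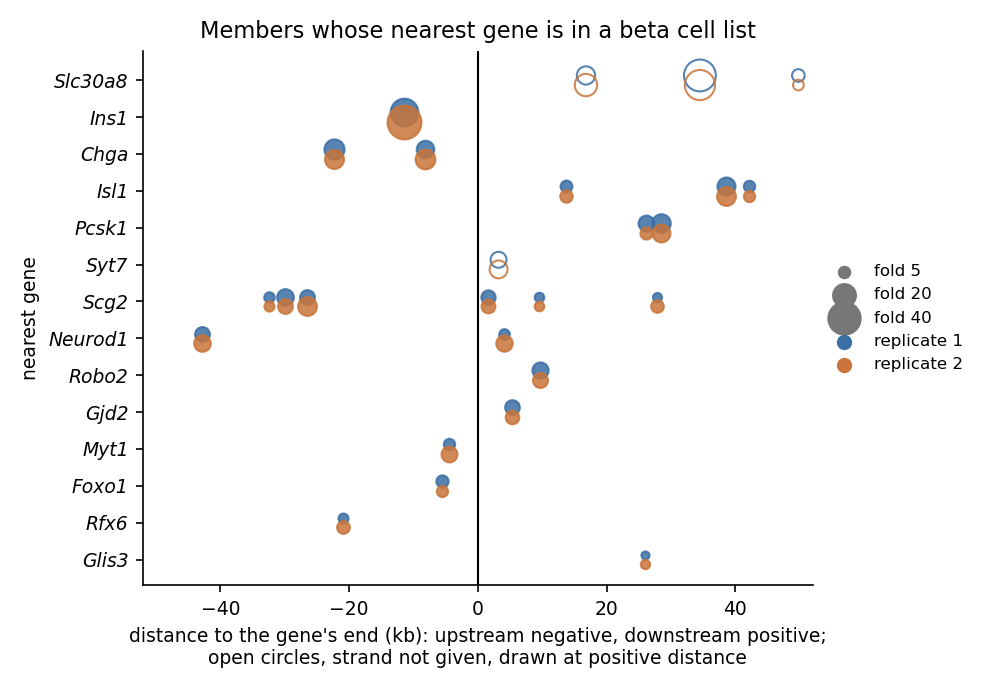
The 26 distal regions whose nearest gene of any kind is in a beta cell list, by gene (y axis) and distance in kb to the gene's end (x axis), upstream at negative and downstream at positive values; circle area gives fold enrichment in replicate 1 (blue) and replicate 2 (orange), and open circles are genes whose strand was not given. The largest circles are those of Ins1, 11.5 kb upstream, and of Slc30a8, at 34.5 kb.

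The same counts were made for lists of other genes. Of 10 genes of other islet cells, 2 (20%, against 7.78% of all protein-coding genes) had a distal region as nearest gene of any kind. They were Irx1 with 7.42 and 10.8, and Sst, the somatostatin gene, with 4.05 and 4.53. By nearest protein-coding gene the count was 4 of 10 (40%), against 14.5% of all protein-coding genes and 38.9% of the beta cell lists. These genes had a median of 75.9 kb of eligible sequence each, and 3.76 distal regions per Mb of it. Of 15 housekeeping genes, 0 had one by either rule, within only 0.239 Mb of eligible sequence. Of 26 genes of other tissues, 3 (11.5%, against 7.78%) had one as nearest gene of any kind, namely Krt19, Col1a2 and Mbp. By nearest protein-coding gene the count was 5 (19.2%, against 14.5%), at 5.28 per Mb. Per Mb these lists lay below the value of 6.17 over all genes and below the 15.3 of the beta cell lists. Their densities rest on few distal regions, with 6 for other islet cells, 0 for housekeeping genes and 7 for other tissues.

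Genes of MafA's own family and of factors that share its DNA sites were also counted. Of 13 MAF and CNC family genes, 2 (15.4%, against 7.78% of all protein-coding genes) were the nearest gene of any kind of a distal region. By nearest protein-coding gene the count was 5 (38.5%, against 14.5%), at 13.6 per Mb, and 6 (46.2%, against 21.6%) had one within 50 kb. That density rests on only 9 distal regions in 0.661 Mb of eligible sequence. Bach1, which encodes a heme-regulated partner of small MAF proteins, had 20.9 and 26.6 at 33.6 kb upstream. Maff, a small MAF gene, had 12.0 and 15.2 at 1.72 kb upstream. Of 10 AP-1 and immediate early genes, 0 were the nearest gene of any kind, against 7.78%. As nearest protein-coding gene there were 3 (30%, against 14.5%), at 6.01 per Mb from only 5 distal regions. A distal region lay within 50 kb of 5 (50%, against 21.6%). Of 10 genes of the MLL3/4 coregulator complex, which methylates H3K4 at enhancers, these counts were 0, 1 (10%, against 14.5%) and 2 (20%, against 21.6%). Their eligible sequence was short, at 0.159 Mb, and held 2 distal regions, or 12.6 per Mb.

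Most genes beside distal regions had a single one, and a few genes had many. Of 4177 genes that were nearest to any, 3165 (75.8%) had 1. The lncRNA Gm34233 had the most, at 8, between 3.56 and 39.6 kb away, with Zfp608 as its nearest protein-coding gene. Emb, which encodes the transporter-associated protein embigin, had 7, and they were weak, between 3.12 and 7.24 in replicate 1 and between 2.81 and 5.09 in replicate 2. The lncRNA Gm42320 also had 7, which reached 21.0 and 27.6. Their nearest protein-coding gene was the receptor phosphatase gene Ptpru, between 114 and 200 kb away. C2cd4b, at a locus linked to type 2 diabetes in humans, had 6, of which the strongest had 12.3 and 12.0 at 12.0 kb downstream. Gm34770, Gm39220 and Scg2 had 6 each.

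By nearest protein-coding gene, Zfp608 had 19 distal regions, between 1.9 and 575 kb away. Tle3, which encodes a Groucho-family corepressor, had 17, reaching 19.4 and 26.7. Matn1, a cartilage matrix gene without H3K4me3 at its ends, had 15, all at least 59.2 kb away. Ptpru had 13, and Irf2bp2 and Tox3 had 12 each. A gap of at most 10 kb joined 1641 distal regions (29.2%) into 720 groups, the largest of 6. Grouped regions had medians of 6.12 and 6.69, and solitary ones 5.8 and 6.27.

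The nearest gene of a distal region was a lncRNA in 2191 cases (39.0%), a protein-coding gene in 2136 (38%) and a pseudogene in 937 (16.7%). Among all genes placed, these kinds made up 25.5%, 43.8% and 19.9%. The median distance to the nearest gene end was 11.5 kb, with a middle range of 5.12 to 23.1 kb, and to the nearest protein-coding end it was 32.2 kb. Density fell from 6.93 distal regions per Mb of unmarked intergenic sequence at 1 to 5 kb to 4.65 at 40 to 50 kb, a ratio of 1.49. When genes other than protein-coding ones were disregarded, 4451 regions met the conditions, and densities of the same bins were 7.25 and 6.83, a ratio of 1.06. The decline with distance was thus seen for all annotated genes and not for protein-coding genes alone. Strength changed little with distance: Spearman's rho with mean fold enrichment was 0.0428 over the 5618 regions. Where the strand of the nearest gene was known, 1580 lay upstream (7.14 per Mb) and 1850 downstream (7.85 per Mb). For the other 2188 (4.83 per Mb) the strand was not given.

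**Figure D4:**
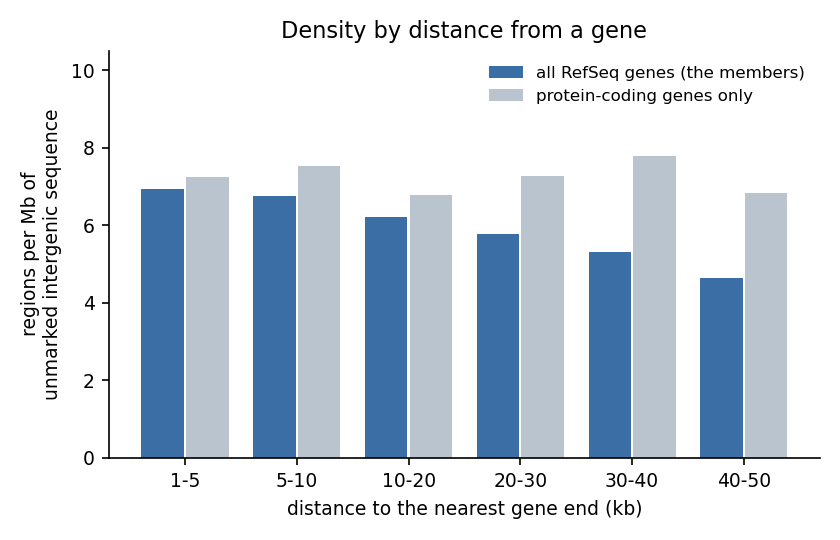
MafA regions per Mb of unmarked intergenic sequence (y axis) by distance in kb to the nearest gene end (x axis), for all RefSeq genes (blue, the 5618 distal regions) and for protein-coding genes only (grey, 4451 regions). The blue bars step down from 6.93 to 4.65, and the grey bars stay between 6.79 and 7.79.

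The mark at the nearest gene was read separately in each H3K4me3 library, as a peak within 1 kb of either gene end. The nearest gene of any kind was marked for 31.2% of distal regions in H3K4me3 replicate 1 and 31.4% in replicate 2. For gene desert regions the shares were 16.6% and 16.4%, and for unmarked regions inside genes 43.4% and 43.7%. The nearest protein-coding gene was marked for 72.5% and 73.0% of distal regions, against 52% and 52.5% of intergenic positions under the same conditions. This share was 2.99 percentage points ± 0.208 (SD, n = 2) above that of gene desert regions and differed by −3.52 points ± 0.111 (SD, n = 2) from that of regions inside genes. The differences had one sign in both libraries. An exact two-sided permutation test over the 2 libraries gave p = 0.5 for each, the smallest it can give, so this design cannot reach 0.05.

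Protein-coding genes were then sorted by what stood at their ends, with H3K4me3 peaks of both replicates and MafA regions other than the distal ones. Intergenic sequence nearest to the 4170 genes with both held 10.8 distal regions per Mb (2105 regions). Sequence nearest to the 8002 genes with H3K4me3 alone held 7.12 per Mb (1952 regions). The 248 genes with MafA alone had 9.95 per Mb (110 regions), and the 9476 with neither had 3.37 per Mb (1451 regions). Limited to sequence over 10 kb from the gene, the values were 10.2, 6.83, 8.18 and 3.17. Median fold enrichment differed less between these states, from 5.78 to 6.2 in replicate 1 and from 6.24 to 7.15 in replicate 2. The same order of genes with both, H3K4me3 alone and neither was seen in each MafA list taken alone. The sequence counted here, as in the 6.17 per Mb over all genes, includes 30.2 Mb of chromosome Y. That chromosome held 0 MafA regions. How its sequence divides among the states was not examined, and sequence where reads cannot be placed was not removed.

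**Figure D5:**
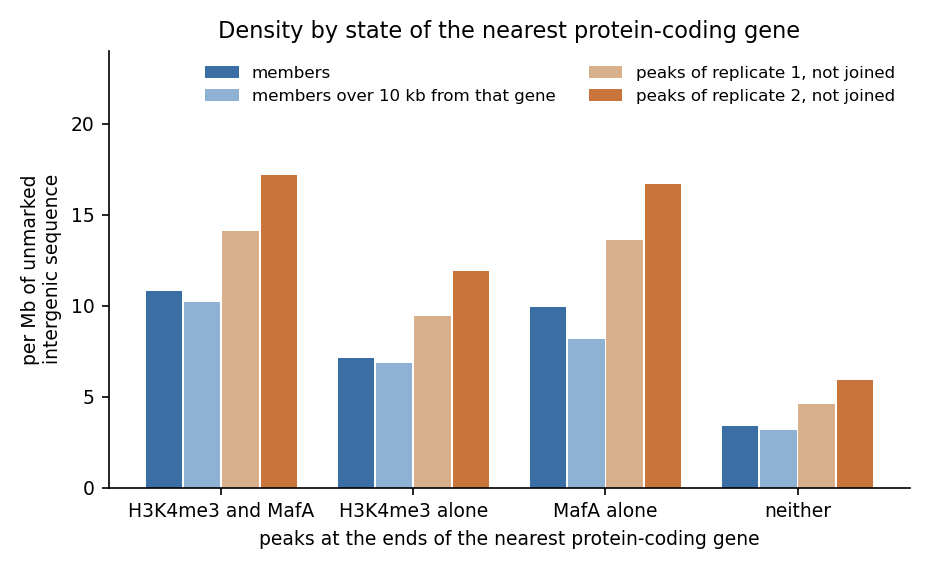
Density per Mb of unmarked intergenic sequence (y axis) by the peaks at the ends of the nearest protein-coding gene (x axis), for distal regions (dark blue), for those over 10 kb from that gene (light blue) and for peaks of each MafA replicate before joining (light and dark orange). Bars are lowest beside genes with neither peak in all 4 series, with 3.37 distal regions per Mb against 10.8 beside genes with both.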

How the data were processed

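CUT&RUN of MIN6 cells gave narrow peak lists for 2 H3K4me3 and 2 MafA libraries. MACS2 and the builds GRCm38 and mm10 are named in the submitters' processing notes; the aligner, control library and handling of duplicates are not given in the sources used here. Fold enrichment, as the authors deposited it, is a ratio of signal to background at the summit and is not log-transformed. It was read as holding a pseudocount of 1 on both sides of the ratio. The deposited significance columns hold −log10 p and −log10 q. The deposited score was not analysed.

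Peaks sharing at least 1 bp were joined, and each region took the strongest peak of each replicate. Positions were set against 49976 RefSeq genes of GRCm38.p6, and a grid of 200 bp steps gave the eligible intergenic length. Fragments and background at MafA summits were solved from fold enrichment and −log10 p with MACS2's pseudocount of 1, assuming whole fragments times a scaling factor (1 and 0.746 in replicates 1 and 2), which fitted 100% and 99.98% of peaks within a relative tolerance of 0.0001. Fragments are given before scaling and background after it. Joining, placing and fragment recovery were tested on simulated data. Intervals are 95% Wilson intervals. Software was matplotlib 3.10.9, scipy 1.17.1, pandas 2.3.3 and numpy 2.4.6 under Python 3.11.15.

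The regions and gene lists were chosen with earlier results of these data known. Regions named are the 12 ranked highest by fold enrichment averaged over both replicates' ranks, those nearest to a beta cell list gene, those at the 5 genes with most regions (7 with ties) and the 5 largest replicate ratios each way. Other genes named from further lists were picked after their values were seen.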

Additional observations from a re-analysis of the deposited data

How the results depend on the processing

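No paired analysis was possible because no test compared 2 antibody groups, whose replicate numbers are the ones shared; classes of regions were compared within each library, as given per replicate above. The main values were 5618 distal regions, 21.7% of MafA regions, a median fold enrichment of 6.11 over both replicates, a marked nearest gene for 31.3%, a density ratio of 1.49, log2 differences in fold enrichment of −0.08 from gene desert and 0.00566 from gene body regions, and 14 listed beta cell genes. With −log10 q of at least 5, the median was 6.79, the gene body difference 0.02 and the listed genes 12. With 50% reciprocal overlap, the median was 6.59, the differences −0.09 and 0.03 and the listed genes 11. With unmarked taken as no H3K4me3 region of both replicates, the share of MafA regions was 22.3% and of marked nearest genes 31.7%; with no H3K4me3 peak within 1 kb the latter was 30.7%. With protein-coding genes only, the shares were 17.2% and 70.9%, the density ratio 1.06, the differences −0.07 and −0.00786, and the listed genes 22. Beyond 2 kb the shares were 20.2% and 30.9% and the differences −0.07 and 0.01. Up to 100 kb the shares were 24.9% and 29.4% and the gene body difference 0.02. With equal numbers of strongest peaks the shares were 22.9% and 31.0%, the differences −0.06 and 0.02 and the listed genes 13. Marks within 500 or 2000 bp of a gene end gave 30.4% and 32.6%, and the nearest protein-coding gene, an alternative chosen after seeing the data, 72.7%. Measured as fragments, the differences were 0.12 and 0.0, with the sign turned for gene desert; by width, that from gene body was −0.02. Listed genes within 50 kb numbered 27. The cause of these changes was not tested.

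Leaving out 1 library gave 5658 to 9364 regions, the latter from MafA replicate 2 alone, where no overlap is required. Ranges were 21.9% to 22.6% of MafA regions, a median of 5.12 to 6.12, 31.1% to 31.8% marked, a density ratio of 1.5 to 1.64, differences of −0.08 to −0.03 and 0.00196 to 0.00628, and 14 to 20 listed genes. Without chromosome 19 from 26 to 29 Mb, also chosen after seeing the data, the median was 6.12 and the listed genes 13. Motif alternatives were not run, as no genome was used. Fragments at the summit limit the precision of weak regions.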

Other observations

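Distal regions were spread unevenly over the chromosomes. On autosomes their density ran from 5.32 per Mb of unmarked intergenic sequence on chromosome 7 to 9.3 on chromosome 19. On chromosome X it was 1.64, with 124 distal regions in 75.5 Mb. Chromosome Y held 0 MafA regions of any class, in 30.2 Mb of the sequence counted. Those on X had median fold enrichments of 6.88 and 7.23 in replicates 1 and 2, against 5.85 and 6.38 over all distal regions. Their fragments at the summit were fewer, at 22.5 and 40.5 against 25 and 51, and so was the modelled background, at 2.11 and 3.0 against 3.48 and 5.0. All MafA regions on X were few, at 503, of which the distal ones made up 24.7%. H3K4me3 peaks on X numbered 52.9 and 56.4 per 100 protein-coding genes in H3K4me3 replicates 1 and 2.

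A stretch of chromosome 19 between 26 and 29 Mb stood apart in background. It held 16 distal regions, from chr19:26438869 to 28759119. Their median modelled background was 16.0 and 26.2 scaled fragments, against 4.59 and 7.0 in the 148 other distal regions of that chromosome. Fragments at their summits were also higher, at 51.5 and 104.0 against 31.0 and 60.5, while fold enrichment was lower, at 3.58 and 3.52 against 5.78 and 6.43. The other 87 MafA regions in the stretch had a background of 14.7 and 22. The distal region of Glis3, at chr19:28232565-28233305, lies in it. One distal region overlapped a miRNA hairpin, Mir7214 on chromosome 17.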
